A study of Mus musculus with 6 samples.

Results

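The cytoplasmic ribosomal protein genes were followed in injured mouse femoral arteries as 76 of the 18476 genes in the authors' table, 30 of the small ribosomal subunit and 46 of the large subunit. They were chosen by name: symbols made of Rpl or Rps and a number, with a closing a, x or y allowed, together with Rplp0, Rplp1, Rplp2 and Rpsa. Pseudogenes and the paralogs whose symbols close in l were left out. The group was proposed with its values in these same 6 libraries in view, so the differences between treatments given here are a description of the libraries, and no test was run over the group.

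The arteries came from wild-type C57BL/6 mice and were taken 3 days after wire injury, a model in which a wire damages the vessel wall and a neointima later forms. Vasostatin-2, a fragment of the secretory-granule protein chromogranin A, was applied around the vessel in the first group (n = 3 libraries), and saline in the second (n = 3 libraries). Both groups were injured, all libraries carry the same batch label, the submitters describe the libraries of a group as biological replicates, and age and sex are not given in the sources used here. As cell type the labels give vascular smooth muscle cells, whereas the protocol describes RNA of the injured artery, enriched for polyadenylated RNA. In such bulk RNA, fewer cells of a type and less RNA per cell cannot be told apart.

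A cytoplasmic ribosome joins a small subunit, which reads the mRNA, to a large subunit, which forms the peptide bond. Each subunit is built from ribosomal RNA and a fixed set of proteins, nearly all present in single copy, and cells that grow or divide spend much of their transcription on these parts. The mRNAs of ribosomal proteins typically begin with a C followed by a run of pyrimidines, the terminal oligopyrimidine tract, through which mTOR signalling and the RNA-binding protein Larp1 govern their translation and stability. The mouse genome also holds many processed copies of these genes, which complicates read counting.

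The start of such mRNAs is shown for 6 genes, because the tract is the sequence feature that the family is best known for. They were taken from the genes with a run of at least 8 letters, so they do not stand for the whole family. Rps12, named by the rule given below, had such a run as well, beginning 8 bases past the annotated start, and is not shown. Rpl35 was not named by that rule. Each line gives 25 bases from RefSeq on GRCm38.p6, from 10 bases before the annotated start to 15 bases from it on, and capitals mark the run that begins with C and goes on with C or T. Rps6 lies at chr4:86857353-86857377 (minus strand), Rps15a at chr7:118116133-118116157 (minus), Rps26 at chr10:128626492-128626516 (minus), Rplp2 at chr7:141447641-141447665 (plus), Rpl14 at chr9:120571507-120571531 (plus) and Rpl35 at chr2:39005117-39005141 (minus).
Rps6: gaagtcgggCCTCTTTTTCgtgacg
Rps15a: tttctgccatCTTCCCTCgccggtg
Rps26: gcaagccgccggatCCTCTTTCgag
Rplp2: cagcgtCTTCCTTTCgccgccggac
Rpl14: ggCCCTCTCTCTTCTCgctgagcgc
Rpl35: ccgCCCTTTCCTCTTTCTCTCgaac
RefSeq windows were found for 56 of the 76 genes, 66 windows in all. A run of at least 8 such letters that began within 10 bases of the annotated start was present in 23 of the 66 windows (34.8%), and in 2663 of 32851 windows of all genes (8.11%). On the opposite strand the shares were 6.06% and 9.73%. With at least 5 letters the shares were 54.5% and 30.7% on the gene's own strand, and 22.7% and 34.9% on the opposite strand. The letters describe the annotated starts, and the libraries do not show where transcription began. The median log2 fold change, vasostatin-2 over saline, was 0.10 in the 34 genes with a run of at least 5 letters, 0.11 in the 22 genes without it and 0.11 in the 20 genes with no window.

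Depth was nearly equal across the libraries, with total estimated counts between 19333730 and 20105995, and a gene with 3 counts stood at 0.149 to 0.155 CPM (counts relative to the scaled size of the library). Over all 14557 genes that passed the filter on low counts, the quasi-likelihood test of edgeR called 0 genes (0%) at an adjusted p of 0.05, with p-values adjusted after Benjamini and Hochberg. At an unadjusted p of 0.05 it gave 1040 genes (7.14%). limma-voom called 0 genes (0%) and DESeq2 called 113 of the 13973 genes to which it gave an adjusted p (0.809%). All 76 ribosomal protein genes passed the filter, so none was lost to low counts.

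The 76 genes held a sizeable share of the transcripts of the injured artery. Their deposited TPM values summed to 12.8%, 12.6% and 11.5% of each library's total in the vasostatin-2 libraries, against 11.7%, 11.6% and 11.2% in the saline libraries. The libraries of the groups overlapped, because vasostatin-2 replicate 3 lay below saline replicates 1 and 2. By estimated counts, which are not divided by transcript length, their share was 4.47%, 4.35% and 3.91% with vasostatin-2 and 3.86%, 4.19% and 3.79% with saline. The mean share of counts was 4.24% ± 0.293 with vasostatin-2 and 3.94% ± 0.215 with saline (SD, n = 3 each), a difference of 0.298 percentage points. Leaving out vasostatin-2 replicate 1 gave a difference of 0.187, and leaving out vasostatin-2 replicate 3 gave 0.464.

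Although ribosomes hold these proteins in near equal numbers, the level per length of their mRNAs spanned from 31.9 TPM to 4114 TPM as the mean over 6 libraries. The median gene stood at 1508 TPM, and the quartiles were 1120 and 1843 TPM. Rpl41, which encodes the smallest ribosomal protein, was the highest gene, at 4503, 4071 and 4221 TPM under vasostatin-2 and 4032, 4053 and 3804 TPM under saline. The vasostatin-2 libraries were each above all 3 saline libraries on this scale, but not on the CPM scale. Next came Rpl23a, which sits beside the exit of the nascent peptide tunnel, at 3619 ± 283 TPM under vasostatin-2 and 3540 ± 84.1 TPM under saline (SD, n = 3 each). Rplp1, of the stalk that recruits elongation factors, averaged 3572 ± 158 TPM under vasostatin-2 and 3369 ± 67.3 TPM under saline. Rps26, Rpl10 and Rps12 followed, with means of 3381, 3202 and 3049 TPM under vasostatin-2 and 3249.9, 2825 and 2795 TPM under saline.

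At the other end, 3 small-subunit genes stood lowest per length. Rps6, whose protein is the classical substrate of the S6 kinases downstream of mTOR, had 35.5, 31.7 and 31.6 TPM under vasostatin-2 and 31.4, 31.3 and 29.8 TPM under saline. Rps15a had 108.8, 101.8 and 90.0 TPM under vasostatin-2 and 90.5, 95.6 and 90.2 TPM under saline. Rps20, of the small subunit's head, had 240.2, 241.5 and 220.7 TPM under vasostatin-2 and 188, 203 and 175 TPM under saline. The length that the authors' FPKM values imply was 5087 bases for Rps15a and 3397 bases for Rps20, the longest of the 76, so their TPM values were divided by far longer transcripts than those of most of the family. Their counts, which are not divided by length, came to 253 ± 24.0 CPM under vasostatin-2 and 232 ± 18.8 CPM under saline for Rps15a and 394 ± 19.8 CPM against 318 ± 37.4 CPM for Rps20. Rps6 had an implied length of 1345 bases and counts of 23.7, 21.1 and 21.1 CPM under vasostatin-2 and 20.3, 21.9 and 19.3 CPM under saline.

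**Figure D1:**
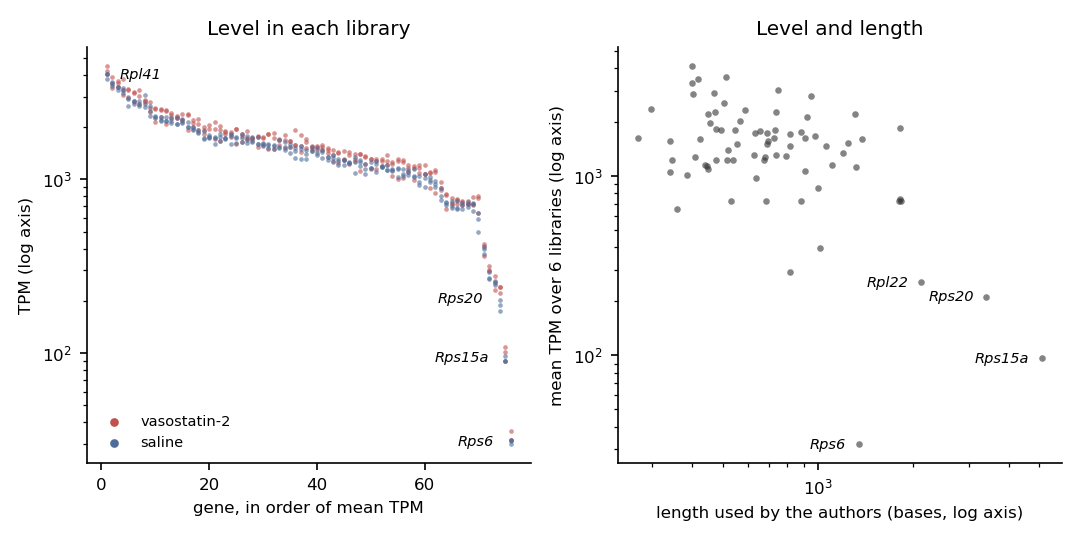
Left, deposited TPM of each of the 76 genes (log axis) in the 3 vasostatin-2 libraries (red) and the 3 saline libraries (blue), with genes in order of their mean TPM. Right, mean TPM over 6 libraries (log axis) against the transcript length implied by the authors' FPKM (bases, log axis); Rps15a and Rps20 lie at 5087 and 3397 bases, and Rps6 is lowest at 31.9 TPM.

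The low Rps6 row has a counterpart in the table. A row named Rps6-ps4, a processed pseudogene of Rps6, held 17920, 18780 and 16699 estimated counts with vasostatin-2 and 17291, 16784 and 16765 with saline, or 902 ± 45.3 CPM against 859 ± 20.4 CPM (SD, n = 3 each). Its libraries overlapped between the groups, with a log2 fold change of 0.07 (SE 0.09). As the mean over 6 libraries it held 2318 TPM, beside 31.9 TPM for the Rps6 row. In GENCODE the coding sequence of Rps6, 750 bases, was matched by Rps6-ps4 on chr2:75191073-75191822 (minus strand) with 0 mismatches, whereas the deposited row of that name covers chr2:75138842-75322897 (plus strand). The first 60 coding bases of both are shown because short reads from this stretch cannot be assigned to either gene by sequence.
Rps6: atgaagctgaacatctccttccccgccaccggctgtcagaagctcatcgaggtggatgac
Rps6-ps4: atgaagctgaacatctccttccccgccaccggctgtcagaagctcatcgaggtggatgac
How the authors' counting shared reads between such copies is not stated in the sources used here. With the copy's counts added to it, Rps6 had a log2 fold change of 0.07, against 0.10 for its own row.

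Other genes shared sequence with rows outside the 76 as well. Rps27 and its copy Rps27rt matched over 255 coding bases with 0 mismatches, and Rpl37 and Rpl37rt over 294 bases with 1 mismatch. That mismatch, G249A counted from 1 at the first base of the Rpl37 start codon, is the capital in the 51 bases around it.
Rpl37: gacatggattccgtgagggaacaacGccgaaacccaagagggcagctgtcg
Rpl37rt: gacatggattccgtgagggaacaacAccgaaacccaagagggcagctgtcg
Rpl37rt held 198 ± 22.6 CPM under vasostatin-2 and 183 ± 18.4 CPM under saline, while Rpl37 itself had 124 ± 4.03 CPM against 112 ± 5.69 CPM. Rpl31-ps12 differed from Rpl31 at 4 of 375 aligned bases and held 55.7 ± 18.3 CPM against 59.9 ± 14.7 CPM, a wide spread within each group. Rpl34-ps1 differed from Rpl34 at 2 of 354 bases and held 54.6 counts in vasostatin-2 replicate 1 but at most 17.2 in any other library. With each copy added to its parent, the log2 fold change was 0.12 for Rpl37, 0.13 for Rpl31, 0.07 for Rpl34 and 0.09 for Rps27. The rows Rps6-ps4, Rpl37rt, Rpl31-ps12 and Rpl34-ps1 were chosen after their values had been seen.

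Between the treatments, every one of the 76 genes had a positive log2 fold change, beside 49.8% of all genes tested, and none passed the test. The values ran from 0.015 for Rpl22 to 0.36 for Rpl36, with a median of 0.10, a 1.08-fold ratio, and quartiles of 0.07 and 0.13. The median over all 14557 genes was -0.00068. Standard errors of single genes lay between 0.07 and 0.13, with a median of 0.10, so a typical value was about as large as its error. By the quasi-likelihood test of edgeR, adjusted after Benjamini and Hochberg over all genes, the lowest adjusted p was 0.649, for Rpl11 and Rps20, and 0 of the 76 were called (0% of all genes). At an unadjusted p of 0.05, edgeR gave 3 of the 76 as higher, beside 3.29% of all genes, DESeq2 4, beside 2.98%, and limma-voom 11, beside 5.19%. After adjustment DESeq2 and limma-voom called 0 of the 76, with lowest adjusted p of 0.146 and 0.316. In the authors' deposited table all 76 log2 fold changes were positive as well, with a median of 0.10 and a lowest q-value of 0.170. Leaving out saline replicate 3 lowered the median to 0.07 and the number of positive genes to 69, and leaving out saline replicate 2 raised the median to 0.16.

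**Figure D2:**
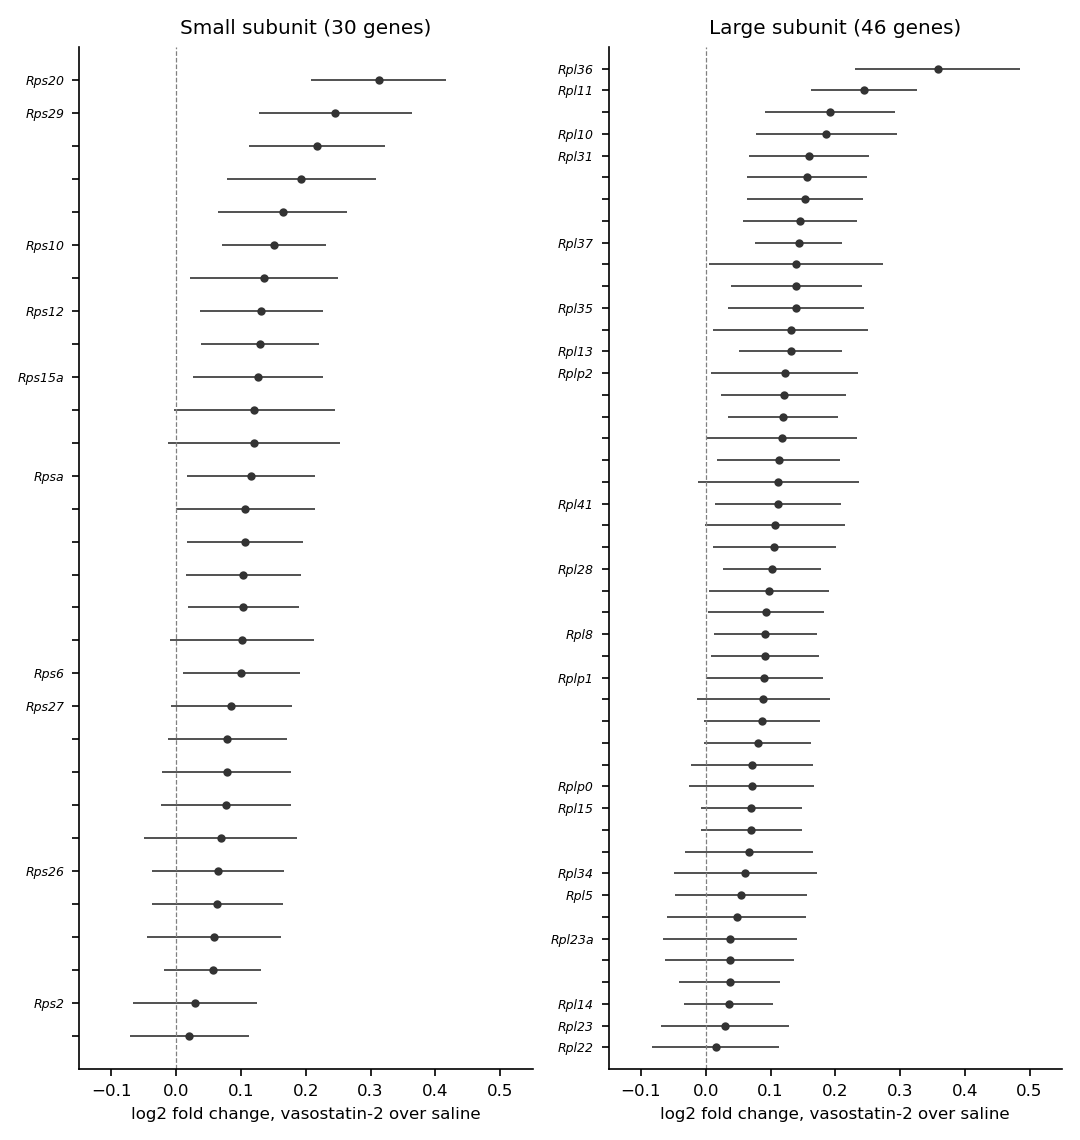
Log2 fold change, vasostatin-2 over saline, with its standard error, for the 30 small-subunit genes (left) and the 46 large-subunit genes (right), each in order of value (n = 3 libraries per group); only genes described in the text carry a label. All points lie right of 0, between 0.015 for Rpl22 and 0.36 for Rpl36, and none passed the adjusted threshold.

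Both subunits had a median log2 fold change of 0.10. Among the 26 genes with the shortest implied transcripts the median was 0.11, and it was 0.10 in the 25 of middle length and in the 25 longest. Split by level, it was 0.11 in the 26 highest genes by TPM and in the 25 of middle level, and 0.10 in the 25 lowest. Of the 76 values, 62 lay between 0.05 and 0.2, 5 were above and 9 below. The 3 vasostatin-2 libraries lay above all saline libraries in 10 genes, namely Rpl8, Rpl11, Rpl13, Rpl15, Rpl28, Rpl31, Rpl36, Rpl37, Rps10 and Rps20, beside 6.07% of all genes, and below them in 0, beside 6.72%.

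The genes varied together from library to library, within the groups as well as between them. Each gene's log2 CPM was set against its own mean over the 6 libraries, and the median of these deviations was 0.12, 0.08 and -0.03 in vasostatin-2 replicates 1, 2 and 3, against -0.07, 0.04 and -0.13 in saline replicates 1, 2 and 3. Vasostatin-2 replicate 3 was thus closer to the saline libraries, and saline replicate 2 lay above it. Of the 76 genes, 47 were highest in vasostatin-2 replicate 1, 20 in vasostatin-2 replicate 2, 2 in vasostatin-2 replicate 3, 1 in saline replicate 1 and 6 in saline replicate 2. The lowest library was vasostatin-2 replicate 3 for 13 genes, saline replicate 1 for 14 and saline replicate 3 for 49.

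Library by library, vasostatin-2 replicates 1 and 2 were each above saline replicate 3 in 76 of 76 genes, and each above saline replicate 1 in 75. Against saline replicate 2, vasostatin-2 replicate 1 was above in 66 genes, replicate 2 in 56 and replicate 3 in 14. Vasostatin-2 replicate 3 was above saline replicate 1 in 48 genes and above saline replicate 3 in 58. The shared library level made up 66.4% of the summed squared deviations of the family, so the 76 genes do not count as 76 separate observations of a treatment. Around that level, single genes scattered with a median SD of 0.06 on the log2 scale within a library. The spread of a gene over the 6 libraries had a median SD of 0.11 on the log2 CPM scale, beside 0.16 for all genes tested, and 67 of the 76 were below the latter value. All genes tested include low ones, whereas the lowest count of the 76 was 387, and the sets were not matched for level.

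**Figure D3:**
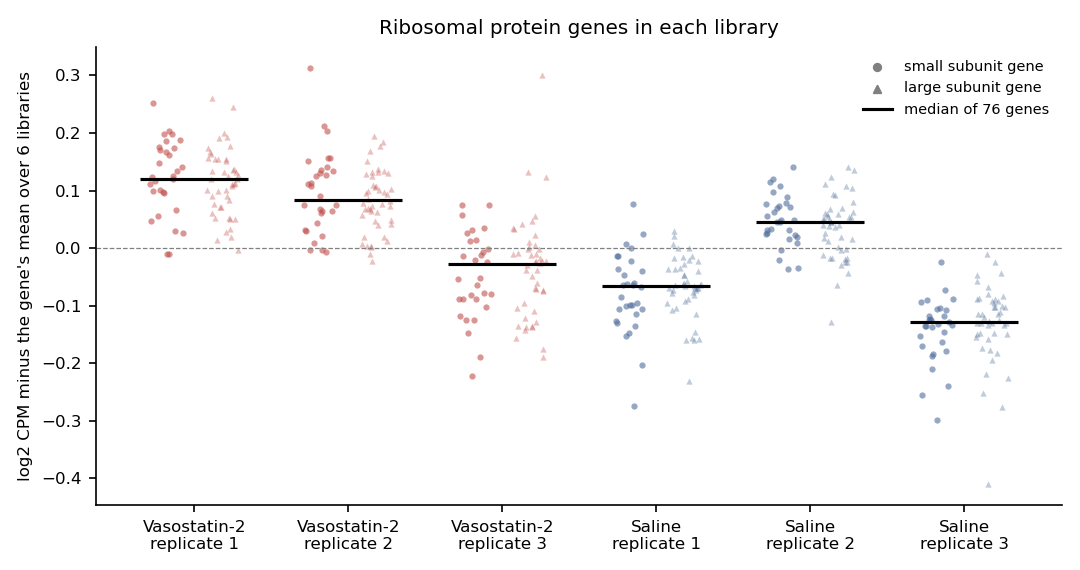
Log2 CPM of each ribosomal protein gene minus that gene's mean over 6 libraries, by library; circles are small-subunit genes, triangles large-subunit genes and black lines the median of 76 genes. The medians are 0.12, 0.08 and -0.03 in the vasostatin-2 libraries and -0.07, 0.04 and -0.13 in the saline libraries, so the groups overlap.

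Among the small-subunit proteins of the head and the mRNA channel, Rps20 stood furthest from 0. It had 405, 407 and 372 CPM under vasostatin-2 and 307, 359 and 287 CPM under saline, so the groups did not overlap, and its log2 fold change was 0.31 (SE 0.10, adjusted p = 0.649 by edgeR's quasi-likelihood test). Rps29, a zinc-binding protein of the head, had 268, 326.5 and 268 CPM under vasostatin-2 and 217, 269 and 241 CPM under saline, for a log2 fold change of 0.25 (SE 0.12). Vasostatin-2 replicate 2 stood above the rest for this gene, while replicates 1 and 3 were level with saline replicate 2.

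Rps2, at the entry of the mRNA channel, did not follow the order of the libraries seen in the family. It had 1308, 1336 and 1350 CPM under vasostatin-2 and 1390, 1286 and 1239 CPM under saline, for a log2 fold change of 0.03 (SE 0.10). Saline replicate 1 was its highest library and saline replicate 3 its lowest. Rps26, which lines the exit of the mRNA channel, had 749, 650.1 and 609 CPM under vasostatin-2 and 626, 651 and 642 CPM under saline, for a log2 fold change of 0.07 (SE 0.10). Its highest and its lowest library were both vasostatin-2 libraries, and without vasostatin-2 replicate 1 its log2 fold change was -0.02.

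Rps12 had 744, 734 and 654 CPM under vasostatin-2 and 639, 689 and 618 CPM under saline, for a log2 fold change of 0.13 (SE 0.09). Rpsa, also known as the laminin receptor for its second role at the cell surface, is a member of the small subunit near the mRNA exit. It had 1805, 1725 and 1639.1 CPM under vasostatin-2 and 1639.2, 1614 and 1518 CPM under saline, for a log2 fold change of 0.12 (SE 0.10). Vasostatin-2 replicate 3 and saline replicate 1 were nearly equal for it.

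In the large subunit, Rpl36 had the largest value and the widest spread of the 76. It had 138, 114 and 142 CPM under vasostatin-2 and 110.2, 110.3 and 86.8 CPM under saline, for a log2 fold change of 0.36 (SE 0.13, adjusted p = 0.681 by edgeR's quasi-likelihood test). The groups did not overlap, although vasostatin-2 replicate 2 exceeded the nearest saline library by little. It was also the gene in which vasostatin-2 replicate 3 was the highest of the 6 libraries, as it was for Rpl37. Rpl37 had 121, 123 and 128 CPM under vasostatin-2 and 115.5, 115.4 and 106 CPM under saline, for a log2 fold change of 0.14 (SE 0.07, adjusted p = 0.710 by the same test).

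Rpl11 belongs with Rpl5 to the particle that carries the smallest rRNA into the large subunit, and free Rpl11 is known to bind Mdm2, the ubiquitin ligase of p53. It had 548, 523 and 495 CPM under vasostatin-2 and 459, 438 and 425 CPM under saline, for a log2 fold change of 0.24 (SE 0.08, adjusted p = 0.649 by the same test). All 3 vasostatin-2 libraries lay above all 3 saline libraries. Its partner Rpl5 averaged 645 ± 61.7 CPM under vasostatin-2 and 621 ± 33.0 CPM under saline (SD, n = 3 each), for a log2 fold change of 0.05 (SE 0.10), with overlap. Rpl10, among the last proteins to join the subunit in the cytoplasm, had 1234, 1212 and 1108 CPM under vasostatin-2 and 1038, 1140.1 and 948 CPM under saline, for a log2 fold change of 0.19 (SE 0.11), with saline replicate 2 above vasostatin-2 replicate 3.

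The acidic stalk, made of Rplp0 with the paired proteins Rplp1 and Rplp2, recruits and activates elongation factors. Rplp0 had 1545, 1434 and 1421 CPM under vasostatin-2 and 1394, 1456 and 1339 CPM under saline, for a log2 fold change of 0.07 (SE 0.10). Rplp1 had 770.4, 751 and 706 CPM under vasostatin-2 and 683, 744 and 664 CPM under saline, for a log2 fold change of 0.09 (SE 0.09). Rplp2 had 259.9, 266 and 282 CPM under vasostatin-2 and 247, 284 and 213 CPM under saline, for a log2 fold change of 0.12 (SE 0.11). The groups overlapped in all 3, through saline replicate 2.

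The genes nearest to 0 in the large subunit were Rpl22, Rpl23 and Rpl14. Rpl22, which ribosomes can do without and which is known for its part in T cell development, had 293, 270.0 and 242 CPM under vasostatin-2 and 252, 287 and 258 CPM under saline, for a log2 fold change of 0.015 (SE 0.10). Rpl23, at the face where the subunits meet, had 208, 212 and 181 CPM under vasostatin-2 and 192, 215 and 181 CPM under saline, for a log2 fold change of 0.03 (SE 0.10). Rpl14 had 329, 317 and 316 CPM under vasostatin-2 and 304, 320.2 and 314 CPM under saline, for a log2 fold change of 0.04 (SE 0.07), and was among the least variable of the 76. The most abundant gene per length, Rpl41, had a log2 fold change of 0.11 (SE 0.10), Rpl23a 0.04 (SE 0.10), Rps6 0.10 (SE 0.09) and Rps15a 0.13 (SE 0.10).

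Other parts of the ribosome that the naming rule left out had values of the same order. Fau, a ubiquitin-like fusion with the small-subunit protein eS30, averaged 410.1 ± 19.1 CPM under vasostatin-2 and 379 ± 44.4 CPM under saline (SD, n = 3 each), for a log2 fold change of 0.11. Rps3a1 averaged 931 ± 77.9 CPM against 854 ± 62.7 CPM, for a log2 fold change of 0.12. Rack1, the scaffold on the head of the small subunit, had 749, 724 and 699 CPM under vasostatin-2 and 659, 689 and 599.6 CPM under saline, for a log2 fold change of 0.16 (SE 0.09) and no overlap. By edgeR's quasi-likelihood test 0 of the 4 genes of that list were called.

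Of 10 listed paralogs, some of which can replace a standard protein in certain tissues, 8 were in the authors' table. The filter on low counts kept 7, and 5 of these had positive values. Rpl3l, the form of Rpl3 known from heart and skeletal muscle, had 1.02, 0.551 and 2.50 CPM under vasostatin-2 and 1.11, 0.775 and 0.349 CPM under saline, for a log2 fold change of 0.86 (SE 0.64). Vasostatin-2 replicate 3 was its highest library, and without that library its log2 fold change was 0.08. Rpl39l, the form of Rpl39 known from male germ cells, averaged 0.271 ± 0.262 CPM under vasostatin-2 and 0.557 ± 0.147 CPM under saline, for a log2 fold change of -1.02 (SE 0.68), at levels near the 3 counts given above. Leaving out vasostatin-2 replicate 3 gave -2.09, and leaving out vasostatin-2 replicate 1 gave -0.54. Rpl22l1, Rps27l, Rpl36al and Rps27rt had log2 fold changes of 0.08, 0.04, 0.04 and 0.20, and Rpl7l1 of -0.05. None of the 7 was called.

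The other genes of protein synthesis were taken from lists chosen with earlier results of these libraries known, and edgeR's quasi-likelihood test called 0 genes of any of them. Elongation factors, some initiation factors and others listed as carrying the same tract had positive values in 13 of 16 genes. Their start sequences were not examined singly. The median log2 fold change was 0.06, or 0.03 without vasostatin-2 replicate 2. In that list Eif3f averaged 195 ± 4.45 CPM under vasostatin-2 and 175 ± 12.7 CPM under saline (log2 fold change 0.16), and Eif3e 183 ± 13.7 CPM against 165 ± 9.22 CPM (0.15). The ribosomal proteins of mitochondria, encoded in the nucleus for a separate ribosome, were positive in 46 of 78 genes with a median of 0.03, which was 4.2e-05 without saline replicate 1. Mrpl23 averaged 34.5 ± 1.19 CPM under vasostatin-2 and 29.7 ± 1.15 CPM under saline (log2 fold change 0.22, SE 0.07), and Mrpl54 32.3 ± 1.27 CPM against 36.1 ± 0.871 CPM (-0.16, SE 0.07). The groups overlapped in neither, and the first was higher and the second lower with vasostatin-2. Of the 78 genes, 1 was higher and 2 were lower without overlap, beside 6.07% and 6.72% of all genes.

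The list of other initiation factors was positive in 10 of 29 genes, with a median log2 fold change of -0.04. It leaves out Eif3e, Eif3f, Eif3h and Eif4b, which were counted in the list with the tract. Their log2 fold changes were 0.15, 0.16, 0.08 and 0.015, so neither list stands for all initiation factors. Eif3a, the largest subunit of the initiation complex eIF3, had 244, 243 and 231 CPM under vasostatin-2 and 295, 266 and 260.4 CPM under saline, for a log2 fold change of -0.19 (SE 0.08, adjusted p = 0.684 by edgeR's quasi-likelihood test), and Eif5b, the factor that joins the subunits, had -0.12 (SE 0.06). The groups did not overlap in either gene. Of the 29 genes, 5 were lower without overlap, beside 6.72% of all genes, and 1 was higher, beside 6.07%. Ribosome biogenesis factors, which process rRNA and assemble subunits in the nucleolus, were positive in 7 of 34 genes, with a median of -0.10. Without saline replicate 1 that median was -0.035, and the median of the initiation factors was -0.015. Pes1, of the large-subunit assembly complex, had 78.7, 77.2 and 76.9 CPM under vasostatin-2 and 90.2, 82.6 and 86.6 CPM under saline, for a log2 fold change of -0.16 (SE 0.06, adjusted p = 0.684 by the same test). Utp4, of the small-subunit processome, had 37.4, 33.9 and 35.7 CPM under vasostatin-2 and 41.5, 37.6 and 40.9 CPM under saline, for a log2 fold change of -0.17 (SE 0.07). Beside these 2, Bop1 and Nop14 were the other genes of that list in which all vasostatin-2 libraries lay below all saline libraries. That made 4 of 34 genes, beside 6.72% of all genes, and 0 were higher without overlap, beside 6.07%.

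RNA polymerase I, which transcribes the large rRNA precursor, had positive values in 9 of 19 genes and a median log2 fold change of -0.002. Its subunit Cd3eap averaged 18.4 ± 2.16 CPM under vasostatin-2 and 21.6 ± 0.895 CPM under saline (log2 fold change -0.23, SE 0.11), and Taf1a 9.61 ± 0.884 CPM against 11.2 ± 1.37 CPM (-0.23, SE 0.13). The list of mTOR and Myc control, which sets ribosome production, was positive in 13 of 25 genes with a median of 0.002. Sesn1, a leucine-sensing inhibitor of mTOR complex 1 and a p53 target, had 122, 119 and 113 CPM under vasostatin-2 and 83.5, 100.1 and 74.4 CPM under saline, for a log2 fold change of 0.46 (SE 0.11, adjusted p = 0.528 by edgeR's quasi-likelihood test). Its relative Sesn2 averaged 13.4 ± 1.42 CPM under vasostatin-2 and 17.5 ± 1.77 CPM under saline, for a log2 fold change of -0.39 (SE 0.12). These related genes thus lay on opposite sides of 0, without overlap between the groups in either. Of the 25 genes, 2 were higher and 5 lower without overlap, beside 6.07% and 6.72% of all genes. Myc, the transcription factor that drives ribosome production, averaged 45.7 ± 5.85 CPM under vasostatin-2 and 60.4 ± 8.81 CPM under saline, for a log2 fold change of -0.40 (SE 0.13, adjusted p = 0.650 by the same test). It was named after its values had been seen.

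**Figure D4:**
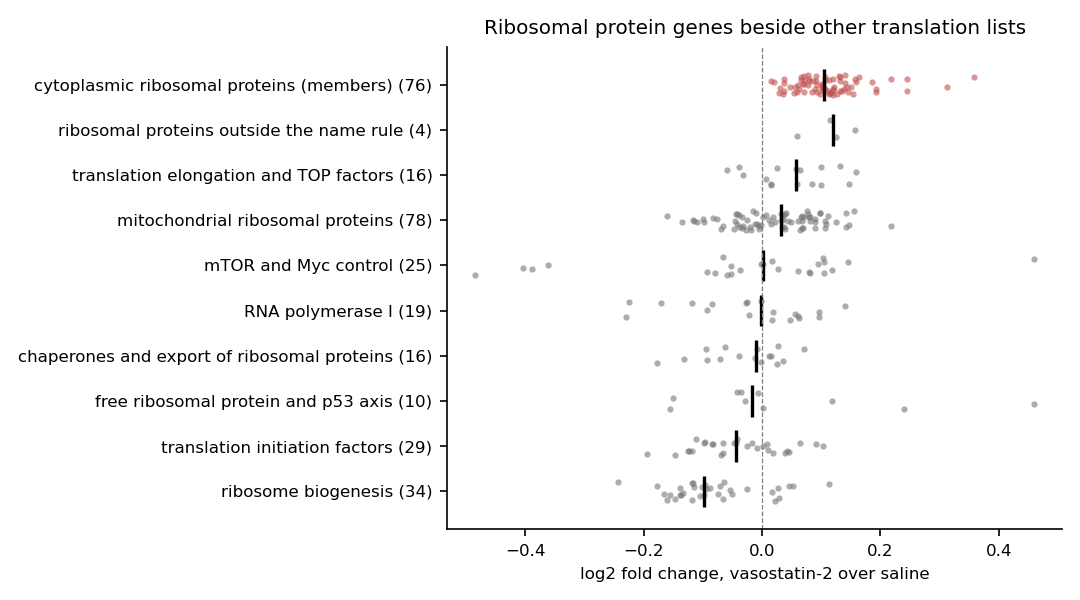
Log2 fold change, vasostatin-2 over saline, of each gene tested in the ribosomal protein family (red) and in 9 other lists of protein synthesis (grey), with the number of genes in parentheses and the median as a black bar. The medians are 0.10 for the family, 0.06 for elongation and other factors listed with the tract, 0.03 for mitochondrial ribosomal proteins and -0.10 for ribosome biogenesis.

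The make-up of the arteries differed between libraries, and its part in the ribosomal protein values was not tested. Contractile smooth muscle markers were positive in 12 of 12 genes, with a median log2 fold change of 0.36 and a summed level of 1142, 2642 and 2749 CPM under vasostatin-2 and 1770, 1145 and 2213 CPM under saline. Their groups overlapped, and the median was 0.14 with vasostatin-2 replicate 3 left out and 0.71 with vasostatin-2 replicate 1 left out. Macrophage markers were positive in 7 of 10 genes, with a median log2 fold change of 0.14, and summed to between 9139 and 9640 CPM under vasostatin-2 and between 7310 and 10534 CPM under saline. In 4 of these 10 genes all vasostatin-2 libraries lay above all saline libraries, beside 6.07% of all genes, and the list median was 0.37 without saline replicate 2. Fibroblast markers were positive in 6 of 8 genes, with a median log2 fold change of 0.37 and 3 genes higher without overlap, again beside 6.07%. Their mean log2 CPM was 9.33, 9.35 and 9.37 under vasostatin-2 and 9.09, 8.74 and 9.22 under saline, so the groups did not overlap on that scale. The summed fibroblast level overlapped, at 21602 to 27548 CPM under vasostatin-2 and 18848 to 33889 CPM under saline.

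Markers of neighbouring tissue and of blood were high in single libraries. Skeletal muscle markers were positive in 15 of 15 genes (median log2 fold change 1.76) and summed to 93.7, 113 and 1369 CPM under vasostatin-2 and 149, 142 and 115 CPM under saline, so vasostatin-2 replicate 3 stood apart, and without it the median was -0.35. Schwann and nerve markers were positive in 1 of 10 genes tested (median -1.18) and summed to 213, 284 and 228 CPM under vasostatin-2 and 176, 197 and 925 CPM under saline. Saline replicate 3 stood apart, and without it the median was 0.51. Red cell markers were positive in 0 of 8 genes (median -2.42) and summed to 2364, 381 and 311 CPM under vasostatin-2 and 1840, 12367 and 2507 CPM under saline, highest in saline replicate 2, and the median was -4.05 without vasostatin-2 replicate 1 and -1.16 without saline replicate 2. With these 3 marker lists taken out of the library totals and the family kept, the difference in the share of counts was 0.281 percentage points, beside 0.298 with all genes. The lists held only 0.0783% to 1.27% of the counts of a library, so taking them out could move the shares only slightly. Other RNA of the same cells stayed in the totals. With vasostatin-2 replicate 3 and saline replicate 3 both left out, the median log2 fold change of the 76 genes was 0.11, with 74 positive. Each of these libraries had the lowest median deviation of the family in its group (-0.03 and -0.13).

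Of the other lists, adipocyte markers, positive in 5 of 7, summed to between 3023 and 3823 CPM under vasostatin-2 and between 1813 and 4414 CPM under saline. Endothelial markers, positive in 4 of 8, summed to between 1853 and 2159 CPM against between 1819 and 2171 CPM. Neutrophil markers were positive in 0 of 10 tested genes and summed to between 281 and 523 CPM under vasostatin-2 and between 489 and 762 CPM under saline. Lymphocyte markers, positive in 3 of 11, summed to between 49.6 and 64.2 CPM against between 39.7 and 105.8 CPM, and proliferation markers, positive in 3 of 10, to between 659 and 745 CPM against between 609 and 807 CPM. No marker in the table was at 0 in all 6 libraries, and edgeR's quasi-likelihood test called 0 genes of these lists.

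**Figure D5:**
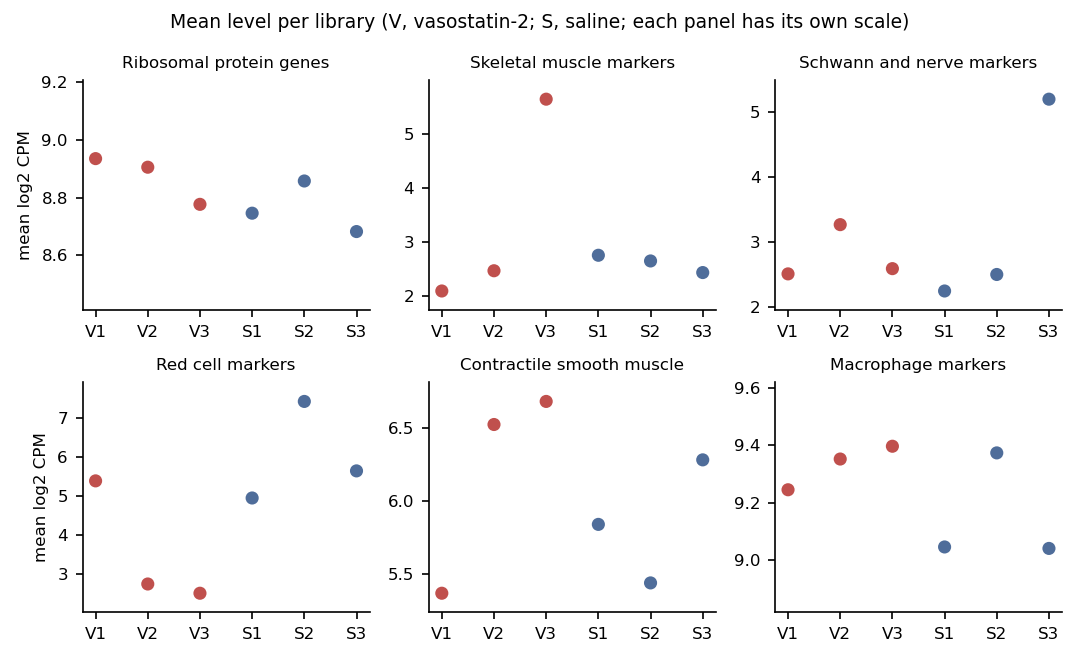
Mean log2 CPM of the ribosomal protein genes and of 5 marker lists in vasostatin-2 replicates 1 to 3 (V1 to V3, red) and saline replicates 1 to 3 (S1 to S3, blue); each panel has its own scale. Vasostatin-2 replicate 3 is highest in skeletal muscle markers, saline replicate 3 in Schwann and nerve markers and saline replicate 2 in red cell markers.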

How the data were processed

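Per the labels' protocols, TRIzol RNA was enriched for mRNA with oligo(dT) beads and sequenced on a BGISEQ platform. Per the submitters' processing notes, HISAT2 2.1.0, DESeq2 1.26.0 and the build GRCm38.p6 were used. The counting tool and strandedness are not given in the sources used here, so reads of overlapping, antisense or near-identical genes could not be separated. The authors deposited estimated counts, of which 65.6% were whole, with FPKM and TPM per library, used for levels and lengths. Fold changes on the log2 scale with p-values and q-values, also deposited by the authors, are quoted only where their table is named, and 99.7% had the sign of the difference between group means. The table holds 0 mitochondrial genes.

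Estimated counts were rounded, filtered with filterByExpr and scaled by TMM (factors 0.985 to 1.01). edgeR 4.0.16's quasi-likelihood test (R 4.3.3, robust, treatment as the only term) was adjusted by Benjamini-Hochberg over 14557 genes, with a biological coefficient of variation of 16.1%. The SE of a log2 fold change was its absolute value divided by the square root of the F statistic of this test. CPM values use the scaled library sizes. DESeq2 1.42.0, which left 584 adjusted p-values undefined, and limma 3.58.1 (voom) were alternatives. The limma-voom fit used quality weights estimated from the data, so the libraries did not count equally in it. Further alternatives were other scalings and filters, a replicate block, TPM with a pseudocount of 1 or 0.1, and leaving out libraries. The edgeR fit was checked on simulated counts. The planted changes were larger than any in the family and the genes were drawn independently, so the check does not bear on the family's values. Libraries of a group differed by more than counting noise. Sequences came from RefSeq and GENCODE on GRCm38.

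The 76 genes and all lists were chosen with earlier results of these data known. Genes were named by rule: the 6 highest and 3 lowest by TPM, the 5 largest and 5 smallest log2 fold changes, the 4 smallest p, the 3 widest spreads, and the stalk proteins, Rpsa, the genes outside the naming rule and paralogs by name, with 2 genes of smallest p from each translation list. Rpl5, Bop1, Nop14, Eif3h and Eif4b were named beside these, after their values had been seen. Rpl35 was named outside this rule as well, with its start sequence. A few genes met by this rule are not reported here.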

Additional observations from a re-analysis of the deposited data

How the results depend on the processing

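No ribosomal protein gene was called under any alternative run, and the median of the 76 log2 fold changes stayed positive, between 0.10 and 0.14 under other scalings, filters and tests. All 76 stayed positive there. Leaving out single libraries moved the median between 0.069 and 0.157, the number of positive genes between 69 and 76, the difference in share of counts between 0.187 and 0.464 percentage points and the genes called over the whole table between 0 and 2. DESeq2 called 113 genes of the whole table. With both replicates 3 left out, the log2 fold change was -0.016 for Rps2, -0.011 for Rplp2, -0.26 for Rpl3l and 0.0080 for Rpl7l1, and the list median was -0.082 for the p53 axis, -0.43 for skeletal muscle and 0.59 for Schwann and nerve markers. The macrophage median was 0.31 by limma-voom, which weighted the libraries unequally. The cause of these shifts was not tested. Over single libraries left out, the log2 fold change ranged from -0.052 to 0.083 for Rpl22, from -0.024 to 0.10 for Rpl23, from -0.019 to 0.096 for Rpl23a, from -0.0044 to 0.077 for Rps2 and from -0.023 to 0.13 for Rps26. It ranged from -0.014 to 0.19 for Rpl22l1, from -0.012 to 0.12 for Rpl36al and from -0.061 to 0.51 for Rps27rt. List medians ranged from -0.064 to -0.015 for initiation factors, from -0.15 to -0.035 for biogenesis factors, from 4.2e-05 to 0.047 for mitochondrial ribosomal proteins, from -0.077 to 0.075 for the p53 axis, from 0.064 to 0.37 for macrophage, from -4.05 to -1.16 for red cell, from -0.35 to 2.23 for skeletal muscle and from -1.82 to 0.51 for Schwann and nerve markers. Same-numbered libraries did not deviate together (correlations of -0.119, 0.0251 and 0.0273 over genes), and with the replicate block 0 genes were called and the median was 0.105. Adding copies to their parent genes was chosen after seeing the data. The lowest count of any ribosomal protein gene in a library was 387.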

Other observations

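The p53 axis linked to free ribosomal proteins was positive in 4 of 10 genes, with a median log2 fold change of -0.018. Besides Sesn1, Phlda3, a p53 target that restrains Akt, averaged 68.8 ± 3.25 CPM under vasostatin-2 and 58.3 ± 7.32 CPM under saline (SD, n = 3 each), for a log2 fold change of 0.24 (SE 0.10), with overlap through saline replicate 3. Chaperones and importers of ribosomal proteins were positive in 6 of 16 genes, with a median of -0.010. Tnpo1, which carries proteins into the nucleus, averaged 95.7 ± 6.27 CPM under vasostatin-2 and 108 ± 2.61 CPM under saline, for a log2 fold change of -0.18 (SE 0.07). Bccip averaged 30.6 ± 1.20 CPM under vasostatin-2 and 33.5 ± 1.24 CPM under saline, for a log2 fold change of -0.13 (SE 0.07). In both genes the vasostatin-2 libraries lay below the saline libraries, and edgeR's quasi-likelihood test called 0 genes of either list. Of the 16 chaperone and importer genes, 3 were lower without overlap, beside 6.72% of all genes, and 0 were higher, beside 6.07%.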
